A study of Homo sapiens with 2 samples.

Results

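The genes of the microtubule motors kinesin and cytoplasmic dynein were followed through the skipped-exon events listed for HEK293T cells with and without amiloride. Members were every row of the skipped-exon table whose gene symbol begins as a kinesin heavy chain or kinesin partner (KIF followed by a number), a kinesin light chain (KLC), a cytoplasmic dynein chain (DYNC, DYNLT, DYNLL or DYNLRB) or a dynactin subunit (DCTN). The rule found 784 of 113456 events, which describe 485 of 67154 distinct exons in 61 genes. It used gene symbols only and no measured value. One of these symbols, KIF9-AS1, names an antisense RNA and not a motor, and its 2 exons were kept as the rule gives them.

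HEK293T, a line derived from human embryonic kidney, was grown in serum-containing medium, and polyadenylated RNA was sequenced from 1 library of untreated cells (control) and 1 library of cells given amiloride at 300 µg/mL for 6 h. Amiloride is a diuretic that blocks epithelial sodium channels. The question was which exons change in splicing under a broad chemical perturbation. The authors' rMATS tables give for every event an inclusion level difference, on a scale from -1 to 1, and a false discovery rate (FDR). The difference subtracts the second numbered library from the first, so a positive value means more inclusion in the first. Because the tables number the libraries without naming them, a sign cannot be assigned to amiloride, and levels per library and sequencing depth are not given here. No condition was replicated, so nothing here has a replicate check, and an FDR sets one library against the other and not one condition against the other. The tables hold no expression levels, so the labelled cell type was not checked against marker genes.

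Kinesins and dyneins convert ATP hydrolysis into steps along microtubules. Most kinesins move toward the plus end and carry vesicles, organelles and cilia components, or build and divide the mitotic spindle, while cytoplasmic dynein moves toward the minus end together with its cofactor dynactin. Kinesin motor domains typically hold a P-loop, which binds the phosphates of ATP, and a switch II segment, which senses the nucleotide. An exon skipped within the motor domain, the coiled-coil stalk or the cargo-binding tail therefore touches different parts of the machine, and many motor genes are known to be alternatively spliced.

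Some of the exons on which the values below turn are very short, and their whole sequence can be read with its flanks. The following 6 are shown because they are among the shortest listed exons of kinesin and dynactin genes. They are written 5′ to 3′ on the transcribed strand, with the exon in capitals between 20 intron bases before it and 6 after it, and with exon coordinates on GRCh37, all on the minus strand.
KIF3A exon 11, 9 bases, chr5:132042143-132042151: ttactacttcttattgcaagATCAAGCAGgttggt
KIF13A exon 3, 13 bases, chr6:17898399-17898411: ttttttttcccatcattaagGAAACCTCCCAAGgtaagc
KIF21A exon 24, 21 bases, chr12:39724044-39724064: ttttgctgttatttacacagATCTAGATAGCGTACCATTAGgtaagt
KIF21A exon 31, 12 bases, chr12:39709031-39709042: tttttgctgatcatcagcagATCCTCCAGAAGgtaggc
DCTN1 exon 6, 18 bases, chr2:74601450-74601467: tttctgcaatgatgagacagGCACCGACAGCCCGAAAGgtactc
DCTN1 exon 7, 21 bases, chr2:74600055-74600075: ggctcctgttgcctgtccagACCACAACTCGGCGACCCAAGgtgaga
The first 3 passed the threshold used here and the other 3 did not, as detailed below.

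Splice sites are shown for the KIF23 exons with the largest differences of opposite sign, and for the called exons whose intron begins with GC in place of GT. The 5′ splice site (5'SS) is given as 3 exon and 6 intron bases with the first 2 intron bases in capitals. The 3′ splice site (3'SS) is given as 20 intron and 3 exon bases with the last 2 intron bases in capitals.
KIF23 exon 19, chr15:69733107-69733418, plus strand, 3'SS: tttttctccaatttttctAGctt
KIF23 exon 19, 5'SS: aggGTtagt
KIF23 exon 22, chr15:69738622-69738703, plus strand, 3'SS: tcatgtttcccctttttcAGtag
KIF23 exon 22, 5'SS: aggGTaggg
KIF5B exon 18, chr10:32310154-32310215, minus strand, 5'SS: aagGCaagt
KIF16B exon 2, chr20:16509016-16509085, minus strand, 5'SS: aagGCaagt
KLC1 exon 5, chr14:104129039-104129264, plus strand, 5'SS: cagGCtagt

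Differences in inclusion were found in most motor genes, as in the table at large, and had almost one sign. An exon was called, or sensitive, if at least 1 of its rows in the authors' deposited table carried an FDR below 0.1. By this measure 189 of the 485 motor exons were called, or 39.0% (34.7 to 43.4, the 95% Wilson interval, here and below for counting error only), against a background of 35.8% of all exons in the table. The called exons lay in 49 of the 61 genes, and in the whole table in 8000 of 11945 genes. At the level of events, 238 of 784 passed, or 30.4%, against 27.5% of all events. Both shares lie close to the background, and the interval of the exon share includes it, so the motor genes are not set apart by their number of calls.

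Among the 238 called motor events the difference was positive in 234 and negative in 4. The positive share was 98.3% (95.8 to 99.3), beside 96.0% in the whole table. The median difference of the called events was 0.0935, with quartiles of 0.0452 and 0.205, and the whole table gave 0.101 with quartiles of 0.047 and 0.217. Taking for each called exon the event of lowest FDR, 187 differences were positive and 2 negative, with a median of 0.099, and 96 of them (50.8%) were at least 0.1 in size. Over all called exons of the whole table the median was 0.109, and 55.6% were at least 0.1 in size. Of the 296 exons that were not called, 232 had a positive difference, 59 a negative one and 5 a difference of 0.

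**Figure D1:**
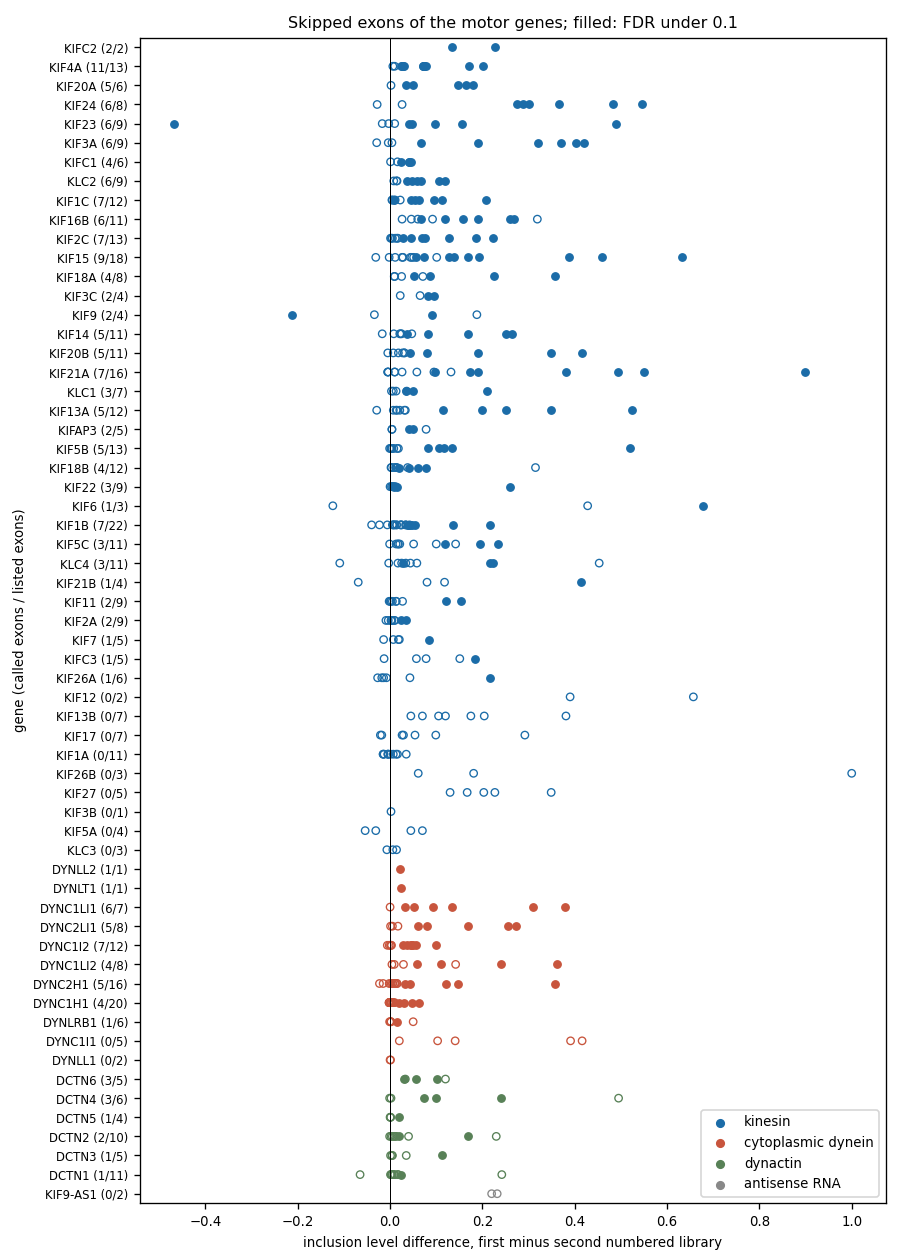
Inclusion level difference (x axis, first minus second numbered library) of each listed exon of the 61 genes (y axis, with called and listed exons in brackets), taking the event of lowest FDR. Filled points have an FDR under 0.1 and open points do not; called exons lie right of 0 except 1 exon of KIF23 at -0.469 and 1 exon of KIF9 at -0.212, and the widest open point is a KIF26B exon at 1.0.

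Several called events of a gene often describe the same skipping junction. The 238 called motor events used 192 different junctions between their flanking exons, and 87 of the events (36.6%) shared the junction with a called event of another exon, compared with 36.4% in the whole table. In KIF24, 1 junction served the called events of 4 exons, and so did 1 in DYNC2LI1. Counts of exons within a gene are therefore not counts of independent splicing changes. The size of a difference also depended on the flanking exons of the event. Among the 102 called motor exons with more than 1 event, the events of 53 spanned 0.1 or more from the lowest to the highest difference. A value given below for an exon is that of its event of lowest FDR unless another event is named.

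The reads behind the inclusion form include those on the exon body. The table gives each form an effective length, the number of positions at which its reads are counted. Where the exon exceeds that of the skipping form, the inclusion form was longer by exactly the exon in 292 of 292 motor events. A difference can thus contain a change in coverage of the exon body, and the part of each was not tested.

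Kinesin genes gave 144 called exons of 356 listed, or 40.4% (35.5 to 45.6), in 34 of 43 genes, with a median difference of 0.117 among called exons. For cytoplasmic dynein the count was 34 of 86, or 39.5% (29.9 to 50.1), in 9 of 11 genes, with a median of 0.06. Dynactin, here only the subunits named DCTN, had the lowest share of the 3 classes, 11 of 41 or 26.8% (15.7 to 41.9). Even so, each of its 6 genes held at least 1 called exon, and its median was 0.073. The actin-related and capping subunits of dynactin fell outside the symbol rule and are given with the partner genes below. The intervals of the 3 classes overlap one another. The 2 exons of the antisense RNA, at 0.232 and 0.22, were not called.

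By kinesin family, the largest share was that of kinesin-6, the cytokinesis motors KIF20A, KIF20B and KIF23, at 16 of 26 exons or 61.5% (42.5 to 77.6). Kinesin-14, the minus-end-directed motors KIFC1, KIFC2 and KIFC3, followed with 7 of 13 (53.8%), and kinesin-13, which depolymerises microtubule ends, with 15 of 30 (50.0%). The chromokinesins and stalk-rich motors of kinesin-4 had 20 of 43 (46.5%) and kinesin-12 had 9 of 20 (45.0%). Lower shares were seen in kinesin-3, the vesicle motors of the KIF1 and KIF13 type, with 30 of 86 (34.9%), in the heavy chains of kinesin-1 with 8 of 28 (28.6%), and in kinesin-5, whose only gene is the spindle motor KIF11, with 2 of 9 (22.2%). Kinesin-11 had 1 of 9 (11.1%). Kinesin-6 alone among the families listed had an interval that lay above 35.8%, and with this many families the order is a description without a test.

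**Figure D2:**
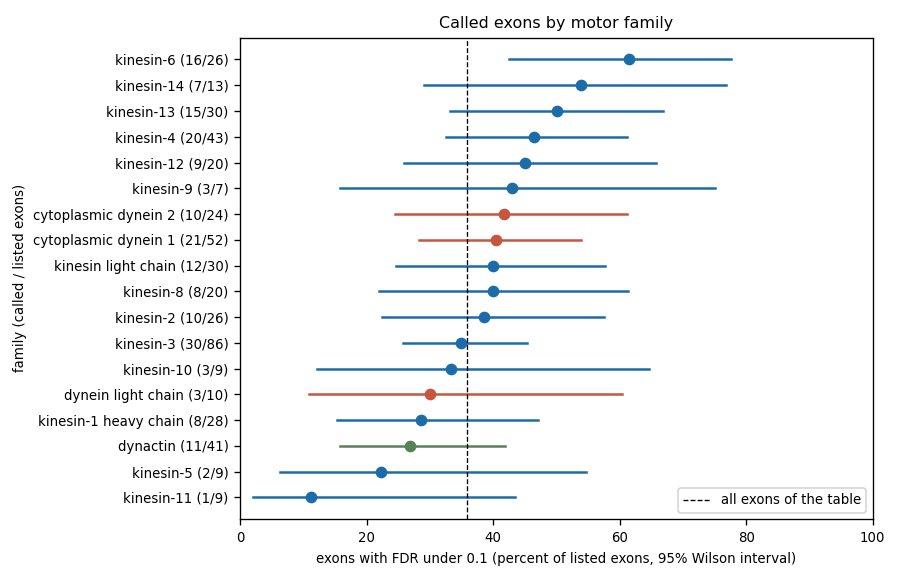
Share of listed exons called at an FDR under 0.1 (x axis, percent) for each motor family (y axis, with called and listed exons in brackets). Points are shares, bars are 95% Wilson intervals for counting error, and the dashed line is the 35.8% of all exons in the table; kinesin-6 at 61.5% is the only family whose bar does not reach the line.

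Kinesin-1 carries vesicles and organelles along axons and through the cytoplasm, with heavy chains encoded by KIF5A, KIF5B and KIF5C. In KIF5B, the ubiquitous heavy chain, 5 of 13 exons were called. Its exon 18, one of the GC exons shown above, had a difference of 0.519 with an FDR listed as 0. The others were exon 2 at 0.116, exon 4 at 0.082, exon 5 at 0.135 and exon 6 at 0.107, all in the part that encodes the motor domain. For KIF5C, a neuronal heavy chain, 3 of 11 exons were called, at 0.12, 0.194 and 0.233. None of the 4 listed exons of KIF5A, the other neuronal chain, was called, and their values ran from -0.054 to 0.07.

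The kinesin light chains, which link the heavy chains to cargo, had 12 called exons of 30 (40.0%). In KLC2, 6 of 9 exons were called, between 0.036 and 0.118, and its 7 called events used 4 skipping junctions. KLC1 had 3 of 7, led by a 51-base exon outside the canonical transcript (chr14:104151323-104151373) with a difference of 0.21 and an FDR of 7.35e-12. Its other called exons, exon 4 at 0.035 and exon 5 at 0.049, were much smaller in difference. KLC4 had 3 of 11, with neighbouring exons 6 at 0.217 and 7 at 0.222 and exon 14 at 0.029. The values of exons 6 and 7 come from events over the same junction, and the lowest differences among their events were -0.031 and 0.012. The 3 called events of KLC4 thus used 2 skipping junctions. The FDR was lowest for exon 7 of KLC4 (1.89e-07) and for exon 12 of KLC2 (1.02e-05, difference 0.048). None of the 3 exons of KLC3 was called.

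Kinesin-2 drives transport inside cilia as a complex of KIF3A, KIF3B and the adaptor KIFAP3, while KIF17 works as a homodimer. KIF3A was called in 6 of 9 exons. Its 9-base exon 11 had a difference of 0.421 (FDR 2.10e-13), and exon 17 stood at 0.37, exon 9 at 0.191 and exon 16 at 0.067. Exons 5 and 6 gave 0.402 and 0.32 in events that skip both together, and 0.082 and 0.081 in their other called events, in which each is the other's flank. KIFAP3 (2 of 5, at 0.041 and 0.049) and KIF3C (2 of 4, at 0.083 and 0.095) held smaller values. Both called events of KIF3C used 1 skipping junction. The single listed exon of KIF3B was at 0.002, and none of the 7 exons of KIF17 was called.

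Of the kinesin-3 genes, KIF13A, a motor for endosomal cargo, had 5 of 12 exons called, each at 0.1 or above. Exon 25 (147 bases, chr6:17794480-17794626) stood at 0.523 (FDR 1.45e-12), exon 38 at 0.349, exon 26 at 0.251, exon 32 at 0.2 and the 13-base exon 3 at 0.114. KIF16B, which binds phosphoinositides on endosomes, had 6 of 11, between 0.066 and 0.268. KIF1C had 7 of 12, from 0.009 to 0.207, and KIF1B had 7 of 22, from 0.039 to 0.217. KIF14, which acts in cytokinesis, had 5 of 11, from 0.037 to 0.264. No exon was called in KIF1A, the axonal vesicle motor, where the 11 listed exons lay between -0.015 and 0.035. KIF13B also had none called among 7, but its exons lay between 0.045 and 0.381. KIF1A and KIF13B thus lacked calls at very different sizes of difference, and the reads behind their events were not used here.

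Of the kinesins that act in mitosis, KIF4A, a chromokinesin that binds chromosome arms and organises the central spindle, was called in 11 of 13 listed exons (84.6%), from exon 4 to exon 29. These differences were small, with a median of 0.071, and the largest were exon 12 at 0.171 and exon 14 at 0.202. Exons 15 (0.01) and 30 (0.006) did not pass. KIF20A, which carries cytokinesis regulators to the central spindle, was called in 5 of 6 exons (83.3%), at 0.148 for exon 2, 0.165 for exon 3, 0.05 for exon 5, 0.18 for exon 16 and 0.034 for exon 17, and exon 8 stood at 0.002. The values of exons 2 and 3 come from events over the same junction, and their other events gave 0.002 and 0.026. The 7 called events of KIF20A used 5 skipping junctions, and 4 of the events (57.1%) shared theirs with another called exon. KIF24, a centriolar kinesin-13, was called in 6 of 8 exons (75.0%), with values from 0.275 to 0.546, and its exon 9 (72 bases, chr9:34263099-34263170) was the highest at an FDR of 1.18e-07. The 4 events of that exon ran from 0.073 to 0.546, and 3 were called. In KIF24, 8 of the 11 called events (72.7%) shared a skipping junction with another called exon. A tie at 66.7% followed, with KIF3A, KIF23, KLC2 and KIFC1.

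KIF15, a spindle kinesin of the kinesin-12 family, had 9 of 18 exons called. Its exons 2, 4 and 5 stood at 0.46, 0.387 and 0.632, whereas called exons from number 6 onward lay between 0.057 and 0.193. For exons 4 and 5 these values come from events with the same junction, from exon 3 to exon 6. With the other of the pair as its flank, exon 5 gave 0.104 (FDR 0.0128) and exon 4 gave 0.025 (FDR 0.615, not called). Exon 5 (38 bases, chr3:44822377-44822414, FDR 2.89e-06) is coding and its length is not a multiple of 3. KIF20B had 5 of 11 exons called, led by the 37-base exon 7 (chr10:91473804-91473840) at 0.416 with an FDR of 1.98e-11 and exon 23 at 0.348. In KIF18A, a kinesin-8 that limits chromosome oscillation, exon 8 was at 0.358 and exon 3 at 0.226, with 4 of 8 called. KIF2C, the centromeric microtubule depolymerase, had 7 of 13, from 0.028 to 0.223. For KIF11, the bipolar spindle motor, exon 11 stood at 0.154 and exon 17 at 0.121 among 9 listed exons. KIFC1 had 4 of 6, between 0.024 and 0.045, and KIF2A 2 of 9, at 0.024 and 0.035. Both listed exons of KIFC2 were called, at 0.135 and 0.227, and 1 of 5 in KIFC3, at 0.183.

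The remaining kinesins had few calls. KIF22, a chromokinesin of the kinesin-10 family, had 3 of 9, with exon 13 at 0.259 and an FDR listed as 0 beside values of 0.008 and 0.014. In KIF18B, 4 of 12 were called, all under 0.1 in size. KIF7, a regulator of Hedgehog signalling in cilia, had 1 of 5 at 0.084, and KIF26A, whose family is thought to lack motor activity, had 1 of 6 at 0.216.

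KIF23 was the motor gene in which called exons differed most in opposite senses. Its exon 19 (312 bases, in frame) distinguishes the longer protein form known as CHO1 from the shorter MKLP1, and the interval it encodes is known to bind actin. This exon had a difference of -0.469 with an FDR listed as 0, and its second event, with exon 17 in place of exon 18 as a flank, gave -0.071 (FDR 2.10e-05). Exon 22 (82 bases, not in frame) had 0.489 in the same comparison, again with an FDR listed as 0. The remaining called exons of KIF23 were exon 2 at 0.041, exon 5 at 0.155, exon 16 at 0.048 and exon 23 at 0.097, while exons 15, 17 and 18 stood at -0.003, 0.01 and -0.017 without a call. Exons 19 and 22 therefore moved in opposite directions between the libraries, against near-zero values in exons 17 and 18 just before them.

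The other called exon with a negative value was a 246-base exon of KIF9 (chr3:47323630-47323875, minus strand) that is outside the canonical transcript. It stood at -0.212 (FDR 1.38e-09), and its other event, at -0.133, did not pass. KIF9 overlaps the antisense gene KIF9-AS1, whose annotated exons do not overlap this one.

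KIF21A, a kinesin-4 that suppresses microtubule growth at the cell cortex, held the largest called difference of all motor exons. The next largest among called events was 0.88 (FDR 0.0470), in an event of DYNC2LI1 exon 8 that is described below at its event of lowest FDR. The 21-base exon 24 gave 0.898 (FDR 0.000649) in the event that skips from exon 23 to exon 26. In the event that skips from exon 23 to exon 25, the same exon gave -0.104 (FDR 0.0816). It was the only motor exon with called events of both signs, and the value of 0.898 depends on which neighbour is taken as the flank. Exon 25, skipped across the same junction from exon 23 to exon 26, stood at 0.381 with an FDR listed as 0. Farther along, exon 28 was at 0.493, exon 29 at 0.191 and exon 32 at 0.549. The 3 events of exon 28, all called, ran from 0.083 to 0.493, and the 4 of exon 32, all called, from 0.075 to 0.549. The values 0.493 and 0.549 come from events over the same junction, from exon 27 to exon 33, so they are not separate splicing changes. In position, 5 of the 7 called exons of KIF21A lay between exons 24 and 32. Most of its 16 listed exons also lie there, and the position of calls was not tested. The 12-base exon 31 within this stretch had 0.132 with an FDR of 0.912 and was not called.

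Large values also came from genes with few listed exons. KIF6 exon 9 (87 bases, chr6:39552674-39552760) stood at 0.678 with an FDR of 0.0345, and the other listed exons of KIF6, at -0.124 and 0.428, were not called. KIF21B exon 13 (118 bases, chr1:200968477-200968594) stood at 0.414 with an FDR of 0.0140, the only call among 4 exons. A difference of 1.0 in KIF26B exon 7 had an FDR of 0.192, and 0.657 in KIF12 exon 7 had an FDR of 0.279. In all, 39 exons without a call had a difference of at least 0.1 in size.

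**Figure D3:**
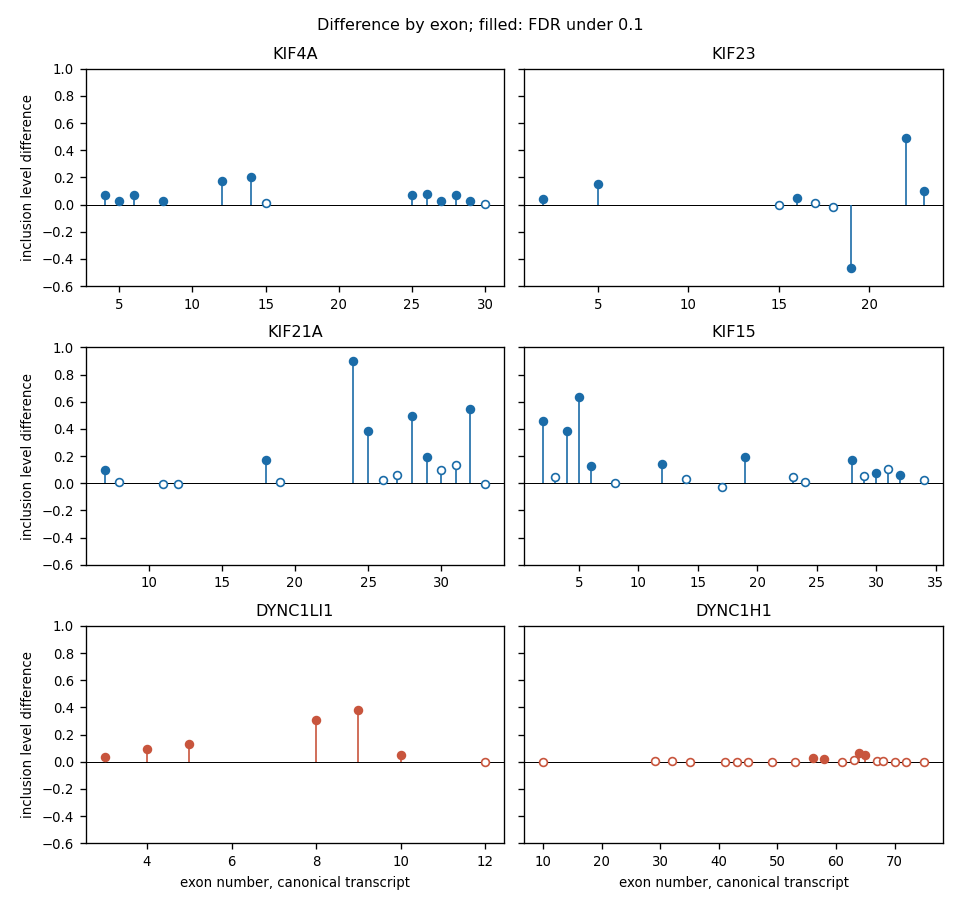
Inclusion level difference (y axis, first minus second numbered library) of listed exons against exon number in the canonical transcript (x axis) for 6 genes. Filled points have an FDR under 0.1; KIF23 shows -0.469 at exon 19 and 0.489 at exon 22, KIF21A its large values from exon 24 to 32, and DYNC1H1 no value above 0.063.

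Exons that encode the nucleotide-binding motifs of the motor domain were among those called. The P-loop was located in 35 of 37 kinesin genes searched, in 40 exons, of which 15 were listed and 9 called. The called P-loop exons had differences of 0.632 in KIF15 (exon 5, with 0.104 in its other event), 0.482 in KIF24 (exon 5, where 1 of 5 events was called), 0.226 in KIF18A, 0.155 in KIF23 and 0.071 in KIF4A, and of 0.05, 0.04, 0.028 and 0.024 in KIF20A, KIF18B, KIF2C and KIFC1. Not called were those of KIF9 at 0.188, KIFC3 at 0.057, KIF20B at 0.018, KIF7 at -0.014, KIF14 at -0.017 and KIF17 at -0.018. Switch II was located in 33 genes and 34 exons, of which 14 were listed and 4 called, namely KIF3A exon 6 at 0.32, KIF24 exon 8 at 0.287, KIF1B exon 8 at 0.044 and KIF1C exon 9 at 0.009. Beside the 40.4% of all kinesin exons and 35.8% of the table, 9 of 15 P-loop exons and 4 of 14 switch II exons are small counts, and no test was made of them.

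Cytoplasmic dynein 1 moves most minus-end cargo in interphase and positions the spindle. Its heavy chain DYNC1H1, which holds the ATPase ring, had 4 of 20 exons called, with exon 56 at 0.031, exon 58 at 0.019, exon 64 at 0.063 (FDR 2.03e-08) and exon 65 at 0.047. All 20 listed exons lay between -0.002 and 0.063. The values of exons 64 and 65 come from events over the same junction, and the lowest differences among their events were 0.003 and 0.004. The intermediate chain DYNC1I2, which connects the heavy chain to dynactin, had 7 of 12 called, from 0.027 to 0.099, and the exon of lowest FDR was its exon 10 at 0.046 (2.17e-07). Its paralogue DYNC1I1 had none called of 5, with values from 0.02 to 0.416.

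The light intermediate chains, whose C-terminal part binds the activating adaptors that tie dynein to cargo, held larger values. In DYNC1LI1, 6 of 7 listed exons were called (85.7%, the highest share among the 46 motor genes with 5 or more listed exons). Its exon 9 (60 bases, chr3:32571953-32572012) stood at 0.379 and exon 8 at 0.309, both with an FDR listed as 0 and both skipped across the junction from exon 7 to exon 10. With exon 9 as its flank in place of exon 10, exon 8 gave only 0.009 (FDR 0.172). The called exons 3, 4, 5 and 10 stood at 0.032, 0.092, 0.134 and 0.052. The values of exons 4 and 5 come from events over the same junction, and the lowest differences among their events were -0.001 and 0.002. The 11 called events of DYNC1LI1 used 7 skipping junctions, and 8 of the events (72.7%) shared theirs with another called exon.

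In DYNC1LI2, 4 of 8 were called. Exon 10 (42 bases, chr16:66762104-66762145) stood at 0.362 and exon 11 at 0.241, both with an FDR listed as 0 and both skipped from exon 9 to exon 12. Exon 11 gave 0.003 when exon 10 was its flank. Exon 9, 60 bases as in DYNC1LI1, stood at 0.11, and exon 4 at 0.059. In both light intermediate chains the largest values at the event of lowest FDR belonged to adjacent exons that one junction skips together. Exon 9 of DYNC1LI1 also gave 0.206 in its other event, which was called. The 3 events of DYNC1LI2 exon 10, of which 2 were called, ran from 0.186 to 0.4.

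Cytoplasmic dynein 2 returns material from the tip of cilia. The heavy chain DYNC2H1 had 5 of 16 exons called. Exon 75 (73 bases) stood at 0.358 with an FDR listed as 0, exon 86 at 0.148 and exon 71 at 0.121, and exons 83 and 87 at 0.032 and 0.043. The light intermediate chain DYNC2LI1 had 5 of 8, of which 2 are versions of one exon that differ by 3 bases at the 3'SS and stood at 0.256 and 0.272. Its other called exons stood at 0.061 for exon 4, 0.079 for exon 8 and 0.169 for exon 9. The 7 called events of DYNC2LI1 used 3 skipping junctions, and 6 of the events (85.7%) shared theirs with another called exon. The values 0.256, 0.272 and 0.169 come from events over the same junction, so they are not separate splicing changes.

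The dynein light chains had 3 called exons of 10, all small: DYNLL2 exon 2 at 0.021, DYNLT1 exon 2 at 0.024 and DYNLRB1 exon 3 at 0.016. Both listed exons of DYNLL1 lay at 0.001 or below and were not called.

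Dynactin is the cofactor that makes dynein processive. DCTN1, its p150 subunit with the microtubule-binding end, was called in 1 of 11 exons (9.09%), exon 3 at 0.024 (FDR 0.00123). The short DCTN1 exons 6 and 7 shown above encode part of the basic region behind the microtubule-binding domain, and these gave -0.065 (FDR 0.973) and 0.01 (FDR 0.136). DCTN2, the shoulder subunit dynamitin, had 2 of 10, with exon 12 at 0.169 and an FDR listed as 0 and exon 8 at 0.02. For DCTN3, also of the shoulder, the called exon was number 4 at 0.113 with an FDR listed as 0. DCTN4, of the pointed end, had 3 of 6, with the 44-base exon 4 at 0.24 and an FDR listed as 0, exon 12 at 0.1 and exon 10 at 0.073. The pointed-end subunits DCTN5 (1 of 4, at 0.02, FDR 0.0295) and DCTN6 (3 of 5, at 0.057, 0.102 and 0.031, lowest FDR 5.02e-06) completed the DCTN genes.

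At the lower end, no exon was called in 12 of the 61 genes, which together listed 52 exons. Of these, DYNC1I1, KIF13B, KIF17, KIF1A and KIF27 had 5 or more exons. The others were DYNLL1, KIF12, KIF26B, KIF3B, KIF5A, KLC3 and KIF9-AS1. In KIF27 the 5 exons had values from 0.13 to 0.349, so the lack of a call there went with large values, in KIF1A with small ones.

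Genes that work with the motors also had a share of calls near the background. Of 42 symbols of regulators, adaptors, actin-related dynactin parts and dynein 2 partners, 36 had skipped-exon rows. The symbols without rows were other names of genes among these 36. In these genes 103 of 274 exons were called, or 37.6% (32.1 to 43.5), in 32 genes. The difference was positive in 101 and negative in 2, with a median of 0.089. Among dynactin's actin-like filament and cap, ACTR1A had 6 of 9 called (0.018 to 0.32), ACTR10 7 of 11 (0.028 to 0.595) and ACTR1B 2 of 7 (0.013 to 0.082). Of the capping genes, CAPZA2 had 4 of 5 with 1 at -0.743, CAPZB 4 of 8 with 1 at -0.792, and CAPZA1 3 of 7 (0.01 to 0.114). Adaptors included HOOK3 with 7 of 15 (0.046 to 0.666), TRAK1 with 6 of 10 (0.057 to 0.474) and TRAK2, a mitochondrial adaptor for both motors, with 4 of 7 (0.167 to 0.729). The dynein regulator PAFAH1B1, known as LIS1, had 2 of 7, at 0.235 and 0.338, and WDR34, an intermediate chain of dynein 2, had 6 of 6 (0.013 to 0.308). Among the lower shares were KNTC1 with 3 of 23, CLIP1 with 1 of 8 and NINL with 1 of 9. No exon was called in HOOK2, NUDC, RILP or TCTEX1D2.

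Called motor exons were shorter than the others. Their median length was 100 bases (quartiles 72 and 123) against 118 (88 and 174) for motor exons without a call, and in the whole table the medians were 102 and 123. With exons split at the quartiles of length in the whole table, the share called fell from 69 of 135 (51.1%) up to 83 bases to 54 of 127 (42.5%) up to 114 bases, 39 of 95 (41.1%) up to 154 bases and 27 of 128 (21.1%) above that. The corresponding shares over all exons were 45.9%, 40.5%, 32.6% and 23.9%. The median difference over all motor exons, called or not, moved with it, from 0.045 in the shortest class to 0.013 in the longest. The inclusion form counts reads on the exon body, so the evidence per event also changes with length, and its part was not tested.

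**Figure D4:**
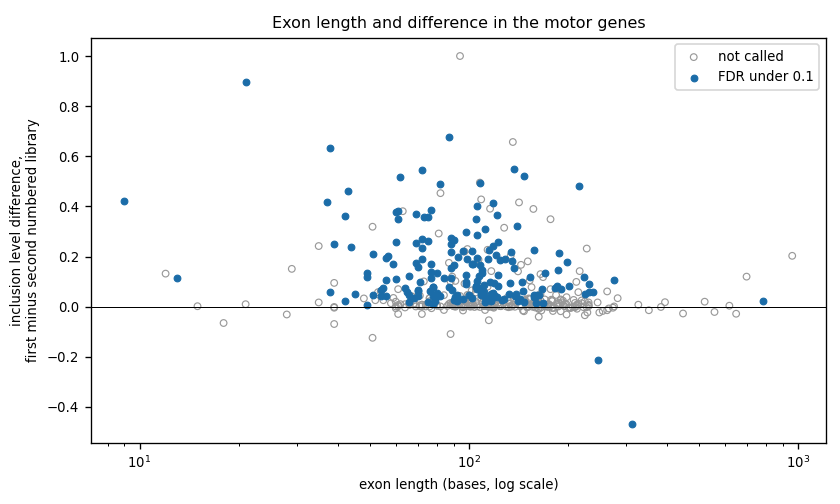
Inclusion level difference (y axis, first minus second numbered library) against exon length in bases (x axis, log scale) for the 485 motor exons. Filled points have an FDR under 0.1; of the 128 exons longer than 154 bases 27 are called, and both negative called exons (246 and 312 bases) are among them.

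Splice site scores had nearly the same means in called and other motor exons. A 5'SS score and a 3'SS score were computed as log2 ratios of base frequencies at annotated sites over equal frequencies, with higher values for sites nearer to the consensus. For the 5'SS the mean was 7.54 ± 2.94 (SD over 189 exons) in called and 7.54 ± 2.83 (296 exons) in other motor exons, and for the 3'SS 8.79 ± 3.52 and 8.70 ± 4.26. In the whole table called exons scored lower at both sites, with 7.60 against 7.86 and 8.94 against 9.19. Among motor exons flanked by AG and GT only, the 5'SS means were 7.785 in called and 7.701 in other exons. Their 3'SS means were 8.812 and 8.825. Among coding motor exons, 75 of 191 (39.3%) whose length is a multiple of 3 were called, as were 98 of 243 (40.3%) of the remainder, with medians of 0.087 and 0.101 for the called exons. Over all exons, coding or not, a length that is a multiple of 3 was found in 43.9% of called and 41.6% of other motor exons. In the whole table these shares were 36.3% and 40.2%, and the contrast was not tested.

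Of the exons of at most 30 bases, 9 belonged to motor genes and 3 were called, next to a background of 39.3% of 705 such exons in the table. The called ones were KIF3A exon 11, KIF21A exon 24 and KIF13A exon 3 (0.114, FDR 0.00704). The 12-base exon of KIF21A, the 28-base exon of KIF5A (-0.031), the 29-base exon of KIFC3 (0.151) and the DCTN1 exons of 15, 18 and 21 bases did not pass. A GC 5'SS was found at 6 motor exons, 3 of them called, against 41.5% of 638 GC exons in the table. KIF5B exon 18 (0.519), KIF16B exon 2 (0.157) and KLC1 exon 5 (0.049) passed. KIF5B exon 18 and KIF16B exon 2 carry the same 9 bases, and so does an uncalled exon of DYNC1H1 (exon 70, 0.001).

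The other event tables held fewer rows for the motor genes. Of their 245 mutually exclusive exon events, 81 were called (33.1%) against 39.3% of all such events, in 31 of 45 genes, with 38 positive and 43 negative differences and a median size of 0.072. The positive share was thus 46.9% (36.4 to 57.7), beside 56.8% of all called events of this type, whose median size was 0.079. In KIF23 the event that opposes exon 19 to exon 20 gave -0.258 and -0.176, and the event that opposes exon 18 to exon 19 gave 0.265, each with an FDR listed as 0. For a gene on the plus strand the value refers to the first exon of the pair, so these describe exon 19 on the same side as its skipped-exon events, with which they share reads. The largest in size was -0.313 in DYNLRB1. KIF27, without a called skipped exon, had a mutually exclusive event at -0.238 (FDR 0.0166).

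Among alternative 3'SS events 6 of 22 were called (27.3%) against 23.0% of all, with 2 positive and 4 negative differences. Of all called events of this type 32.0% were positive. The largest was 0.457 in DCTN3 (97 added bases, FDR 0.0195), where a second event of the same sites gave -0.012 (FDR 0.00464). The lowest FDR belonged to DYNLL1, where 14 added bases stood at -0.036 (FDR 4.95e-14), followed by KIF20B, where 120 added bases stood at -0.172 (FDR 3.38e-07). Alternative 5'SS events numbered 6 with no call at an FDR under 0.1, next to 28.2% of all such events, and their lowest FDR was 0.173, in KIF17. Of 2 retained introns, that of DCTN1 was called at 0.008 (FDR 0.051), where 48.2% of all retained introns were called, and that of KIF18B stood at -0.046 without a call.

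The count of called motor exons depended on how a call was defined, and the whole-table share is given beside each of the following counts. An FDR under 0.05 gave 176 exons (36.3%, background 32.3%) and an FDR under 0.01 gave 147 (30.3%, background 26.9%). When the same event also had to differ by 0.1 or more, 101 exons were left (20.8%, background 20.4%). Exons with exactly 1 event, which have a single chance of a call, gave 87 of 306 (28.4%, background 25.3%). Requiring every event of an exon to pass gave 108 (22.3%, background 19.3%).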

How the data were processed

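Polyadenylated RNA of HEK293T cells was compared between 1 control and 1 amiloride library. Per the labels the reads refer to hg19 (GRCh37), and the submitters' processing notes name STAR 2.5.1. The rMATS version is not given in the sources used here. The authors deposited 5 rMATS tables, in which each event has its p-value, its adjusted p-value (FDR) and a difference in inclusion, on the scale of a fraction. The p-value column was not used. The FDR and the difference are the authors' own comparison and were taken as deposited, since no test of conditions is possible. The 30 columns of reads or inclusion levels per library were not used, because their numbers do not name a condition. Depth is therefore unknown here and no precision per event can be given.

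Exons were defined by chromosome, strand, start and end. The difference of an exon is that of its event of lowest FDR (ties: largest size). Coordinates are 1-based, and 98.6% of motor exons lay between AG and GT on GRCh37. Exon numbers follow each gene's canonical transcript (GENCODE release 44, in its GRCh37 version), which held 454 of 485 exons; KIF5C had no canonical transcript. Motor motifs were found by translating the canonical coding sequence, in place of RefSeq proteins. Splice site scores sum log2 base frequencies over 9 bases (3 exon, 6 intron) or 23 bases (20 intron, 3 exon), from 300873 annotated GT sites and 300290 annotated AG sites (pseudocount 0.5). Intervals of shares are 95% Wilson intervals. The grouping of events into exons and the interval of a share were checked on simulated tables, which says nothing about the deposited FDR.

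Members and lists were chosen with earlier results of these data known. Exons were named by rule: the largest called difference per gene in the 12 genes where it is largest, called exons with a negative difference, the 5 genes with the highest and the 5 with the lowest share among genes with 5 or more listed exons, dynein, dynactin and light chain genes with their exon of lowest FDR, kinesin families by counts, exons with a P-loop or switch II, and exons of at most 30 bases. Other exons and the partner genes named, the splice sites shown, the count of shared junctions, the spread between events of an exon, the GC exons, the analysis without KIF9-AS1 and the split by length were chosen after seeing the data. Alternatives were stricter thresholds (0.05, 0.01), a minimum size of 0.1, exons with exactly 1 event, every event called, and AG and GT only. The work used Python 3.11.15 with pandas 2.3.3, numpy 2.4.6, matplotlib 3.10.9 and scipy 1.17.1.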

Additional observations from a re-analysis of the deposited data

How the results depend on the processing

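No paired analysis was possible because control and amiloride had 1 library apiece, which also means that no library could be left out. A minimum size of 0.1 for the difference lowered the called exons from 189 to 101 in motor genes, from 144 to 81 in kinesins, from 34 to 13 in cytoplasmic dynein, from 11 to 7 in dynactin and from 103 to 52 in partner genes, and the called motor events from 238 to 117. The exon shares left were 20.8%, 22.8%, 15.1%, 17.1% and 19.0% in that order, against 20.4% of all exons. Among exons with exactly 1 event, of which there are fewer, 87 of 306 motor exons were called (28.4%). The counts were 70 of 229 in kinesins (30.6%), 13 of 56 in cytoplasmic dynein (23.2%), 4 of 19 in dynactin (21.1%) and 37 of 151 in partner genes (24.5%). Of all exons with exactly 1 event, 25.3% were called. Requiring every event of an exon to pass left 108 motor exons. At an FDR under 0.01 the median difference of called motor events rose to 0.1135. At the same threshold the called exons fell to 147 in motor genes (30.3%), 106 in kinesins (29.8%), 31 in cytoplasmic dynein (36.0%), 10 in dynactin (24.4%) and 80 in partner genes (29.2%), against 26.9% of all exons. The called motor events fell to 176. Changes at an FDR under 0.05 were smaller, with 176 motor exons and 220 motor events. Exons between AG and GT gave 186, those without KIF9-AS1 gave 189, and the positive share ran from 97.4% to 98.6%. The reads per event were not used, so what depth limits could not be measured.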
